A study of Zea mays with 6 samples.

Results

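Pre-meiotic cells cut out of maize anthers with a laser were set against whole anthers of equal stage. The comparison took every sample labelled as the inbred line W23, which gave 4 of the 6 samples of the study on 2 of its 3 two-colour Agilent arrays. The groups were pre-meiotic cells (replicates 1 and 2) and whole anthers (replicates 1 and 2), all wild type. The titles give a length of 700 µm for all 4 anther samples, while another label gives 701 µm for both samples of replicate 2. Per the labels, pre-meiotic cells were dissected with a PALM microbeam and their RNA was cleaned on a PicoPure column, whereas RNA of whole anthers was extracted with TRIzol and cleaned on an RNeasy column. In all 4 samples, 50 ng of total RNA was amplified linearly and labelled. Dissection, extraction and tissue therefore differ together between the groups and cannot be told apart. The design text speaks of the same plants for both groups, without saying how many there were or whether the 2 replicates were separate extracts, so the p-values measure only the spread between these samples, which may be technical.

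An anther lobe before meiosis holds a column of pre-meiotic cells, the direct precursors of the cells that go through meiosis, inside layers of somatic cells. These layers include the epidermis, the wall layers and the tapetum, which nourishes the germ cells. Whole anthers thus contain the pre-meiotic cells as well, and each ratio compares the dissected cells with a mixture that includes them. Entry into meiosis in maize needs AM1 (ameiotic1), and the cohesin complex, a ring built on the proteins SMC1 and SMC3 and closed by a kleisin subunit such as RAD21, holds sister chromatids together until they part. In bulk samples, fewer cells of a type and less RNA per cell cannot be told apart.

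Each array carried 42034 probes, and precision is limited by there being only 2 arrays. Pre-meiotic cells had 73.9% and 77.7% of the probes well above background in replicates 1 and 2, against 84.3% and 82.5% in whole anthers. Tests covered the 33646 probes that were well above background in both samples of a group. Levels are normalized log2 intensities, and ratios are the log2 ratio of pre-meiotic cells over whole anthers within an array, averaged over both arrays. Across the tested probes, levels of the replicates correlated at 0.980 in pre-meiotic cells and 0.979 in whole anthers, against 0.899 to 0.914 between a sample of one group and a sample of the other. These correlations are across probes, which are not independent replicates. Whole anthers replicate 2 stood apart for a small set of probes, described at the end. The label of the dissected cells could be checked against AM1 alone. Names of the anther wall, of photosynthetic tissue and of vascular tissue matched 0 probes, because the array names nearly all its probes by sequence numbers, and the part of somatic cells left in the dissected samples was not tested.

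All 3 probes of AM1 gave higher levels in pre-meiotic cells than in whole anthers. The brightest AM1 probe had levels of 6.91 and 7.20 in pre-meiotic cells replicates 1 and 2, against 5.97 and 5.93 in whole anthers. The second AM1 probe had 7.16 and 6.92 in pre-meiotic cells, against 5.82 and 5.90 in whole anthers. The third AM1 probe had 6.64 and 6.49 in pre-meiotic cells, against 6.21 and 6.13 in whole anthers. Both pre-meiotic samples lay above both whole-anther samples on every AM1 probe. Over all tested probes, the groups did not overlap, in one direction or the other, in 64.1%. All 3 AM1 probes lay near the low end of the scale in whole anthers, although well above background there on both arrays. The AM1 ratios were 1.11, 1.18 and 0.40 with SEs of 0.121, 0.121 and 0.102 over 2 arrays, and limma gave adjusted p = 0.00137, 0.00111 and 0.0285. By comparison, 15.1% of all tested probes were called higher at an adjusted p under 0.05. The size of the AM1 ratios depended on the offset added during background correction. Without it they were 2.59, 2.91 and 1.06. With the scanner's processed signals they were 3.91, 3.75 and 1.40, the third without a call (limma adjusted p = 0.0568). With the arrays scaled to the spike-in features, as described below, the first and second AM1 probe were still higher, at 0.82 and 0.91 (limma adjusted p = 0.00533 and 0.00302), while the third, at 0.18, had no call (limma adjusted p = 0.505). AM1 is LOC100271891 in the RefSeq gene table.

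The cohesin and centromere names on the array were ZmSMC1, ZmSMC3, ZmRAD21 and ZmSGO1, a shugoshin of the family that protects cohesion at centromeres. Of their 13 tested probes (14 on the array), 4 were called lower in pre-meiotic cells and 0 higher, where 19.5% of all tested probes were called lower. The median ratio of the 13 was -0.10, against -0.0085 for all tested probes.

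ZmSMC3 had levels of 8.58 and 8.41 on its second brightest probe in pre-meiotic cells, against 9.33 and 9.24 in whole anthers. The third had 8.44 and 8.27 in pre-meiotic cells, against 9.04 and 8.95 in whole anthers, and the dimmest 8.10 and 7.90 in pre-meiotic cells, against 8.85 and 8.91 in whole anthers. On these 3 ZmSMC3 probes the groups did not overlap, as was so for 64.1% of all tested probes. Their ratios were -0.79, -0.64 and -0.88 (SEs 0.103, 0.103 and 0.114, limma adjusted p = 0.00245, 0.00521 and 0.00243). Without the offset 2 of these 3 were called lower, where 15.2% of all tested probes were. With processed signals 0 were, where 8.47% of all tested probes were. They then stood at -0.84, -0.74 and -0.95 (limma adjusted p = 0.0848, 0.0990 and 0.0773). The brightest ZmSMC3 probe behaved differently. It had levels of 9.17 and 10.36 in pre-meiotic cells, against 9.35 and 10.13 in whole anthers, so both replicate 2 samples were high, the groups overlapped, and its ratio of 0.02 was not called (SE 0.132, limma adjusted p = 0.926). With median centring and with spike-in scaling, in place of loess, all 4 ZmSMC3 probes were called lower, the brightest at -0.73 and -0.83 (limma adjusted p = 0.0421 and 0.0222). Under these settings 31.5% and 36.1% of all tested probes were called lower. All 4 lie in the brightest quartile of the tested probes, where the median was -0.78 and -0.88. The brightest ZmSMC3 probe was therefore close to other bright probes.

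The brighter ZmSMC1 probe had levels of 8.95 and 8.72 in pre-meiotic cells, against 9.63 and 9.45 in whole anthers. Its groups did not overlap, like those of 64.1% of all tested probes, and its ratio was -0.71 (SE 0.102, limma adjusted p = 0.00356). Without the offset and with processed signals this brighter probe had no call, at -0.79 and -0.84 (limma adjusted p = 0.0572 and 0.0860). The other ZmSMC1 probe had 8.28 and 7.84 in pre-meiotic cells, against 8.42 and 7.68 in whole anthers, where the groups overlapped and the ratio of 0.01 was not called (SE 0.119, limma adjusted p = 0.958). ZmRAD21, the kleisin, was called by limma on 0 of its 6 tested probes, and 0 passed 0.05 before adjustment, while the fit to the scanner's processed signals called 1. Its brightest probe had 6.53 and 7.73 in pre-meiotic cells, against 7.21 and 7.62 in whole anthers, so its replicates differed more in pre-meiotic cells than any sample of one group differed from any of the other. The other 5 ZmRAD21 probes had ratios between -0.17 and -0.0049. Those at -0.08 and -0.10 were well above background in both whole-anther samples and in neither pre-meiotic sample. They thus entered the test through whole anthers. With processed signals they stood at -1.10 and -1.69 (limma adjusted p = 0.0718 and 0.0489), the latter being the 1 ZmRAD21 probe called there, as lower. ZmSGO1 had 7.25 and 7.29 in pre-meiotic cells, against 7.22 and 7.21 in whole anthers, and its ratio of 0.06 (SE 0.102, limma adjusted p = 0.716) was not called. Median centring of the arrays and scaling to the spike-in features gave 7 and 9 of the 13 cohesin and centromere probes as lower, with medians of -0.71 and -0.81, while 4 dim ZmRAD21 probes stood at -0.02 to 0.14 under these settings. Of all tested probes, 31.5% and 36.1% were then called lower, with medians of -0.15 and -0.25. In the brightest quartile of the tested probes the medians were -0.78 and -0.88, so bright probes as a whole moved down.

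The names of the MuDR type refer to the element that drives the Mutator family of maize transposons. The probe 290:MUDRB had 7.07 in both pre-meiotic samples, against 6.85 and 6.64 in whole anthers. The probe 9258:MUDRA-21 had 8.49 and 8.47 in pre-meiotic cells, against 9.08 and 8.62 in whole anthers. In neither did the groups overlap, yet the ratios of 0.32 and -0.37 missed the threshold (limma adjusted p = 0.0725 and 0.0877). The probes 20805:MUDRA and 12367:MUDR-TIRA stood at 0.11 and -0.12 (limma adjusted p = 0.510 and 0.457). limma called 0 of the 4, while 2 of them had unadjusted p-values under 0.05. Over all tested probes, 34.7% were called, 43.6% had such a p-value, and in 64.1% the groups did not overlap. Of the 5 remaining probes with names starting ZM, which neither the files nor the reference table annotate, ZMATP70 had levels of 11.33 and 10.99 in pre-meiotic cells, against 10.22 and 9.98 in whole anthers. Its ratio of 1.06 was called higher (SE 0.104, limma adjusted p = 0.000945), but stood at 0.22 and uncalled with spike-in scaling (limma adjusted p = 0.441). ZMtuc03-08-11.14452 was lower in pre-meiotic cells, at 7.24 and 7.36, against 8.30 and 8.53 in whole anthers, with a ratio of -1.12 (SE 0.104, limma adjusted p = 0.000833) and -1.88 with spike-in scaling. The other 3, ZMU32636 and both ZMtuc03-08-11.14301 probes, were not called, at -0.27, 0.29 and -0.13.

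**Figure D1:**
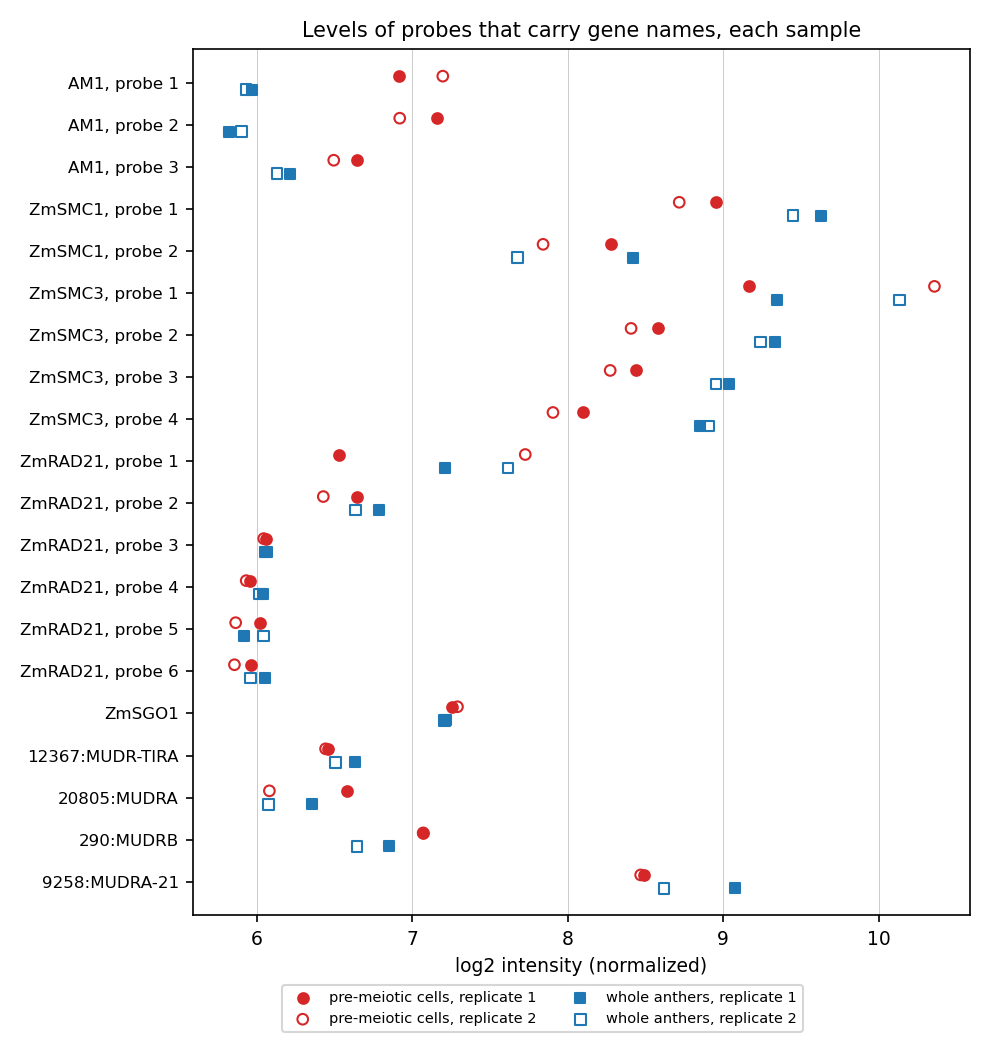
Normalized log2 intensity (x axis) of each tested probe of AM1, the cohesin and centromere genes and the MuDR-type names (y axis), with red circles for pre-meiotic cells and blue squares for whole anthers, filled for replicate 1 and open for replicate 2. The AM1 circles lie to the right of the squares, the circles of 1 ZmSMC1 and 3 ZmSMC3 probes lie to their left, and the brightest ZmSMC3 and ZmRAD21 probes overlap between the groups.

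Over the whole array, limma called 11659 probes, 5092 with higher and 6567 with lower levels in pre-meiotic cells, 34.7% of those tested, and 14667 had an unadjusted p under 0.05. A probe with opposite signs on its arrays cannot pass this test, so all called probes had 1 sign on both arrays by construction. All called probes kept their direction with the scanner's processed signals. Of all tested probes, 77.1% had 1 sign on both arrays, and the ratios of both arrays correlated at 0.875 (Pearson) and 0.802 (Spearman) across probes. The distribution was longer on the lower side. Its 1st percentile lay at -2.16 (4.46-fold lower) and its 99th at 1.42 (2.67-fold higher), while the 25th and 75th percentiles lay at -0.26 and 0.19.

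What could be called depended on brightness. In the dimmest quartile of the tested probes, with mean levels of 5.84 to 6.15, 10 probes were called higher and 40 lower (0.594%), 58.3% of ratios had 1 sign on both arrays, and the arrays correlated at 0.278. In the brightest quartile, with levels of 7.93 to 17.5, 2428 were called higher and 2778 lower (61.9%), 86.8% of ratios had 1 sign, and the arrays correlated at 0.907. The quartiles between them had 695 higher and 1087 lower (21.2%), and 1959 higher and 2662 lower (54.9%). An offset added during background correction draws dim ratios towards 0, and the median size of a ratio was 0.07 in the dimmest quartile and 0.55 in the brightest, while the processed signals, which carry no offset, gave 0.68 and 0.63. A dim transcript without a call was therefore not shown to be equal.

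**Figure D2:**
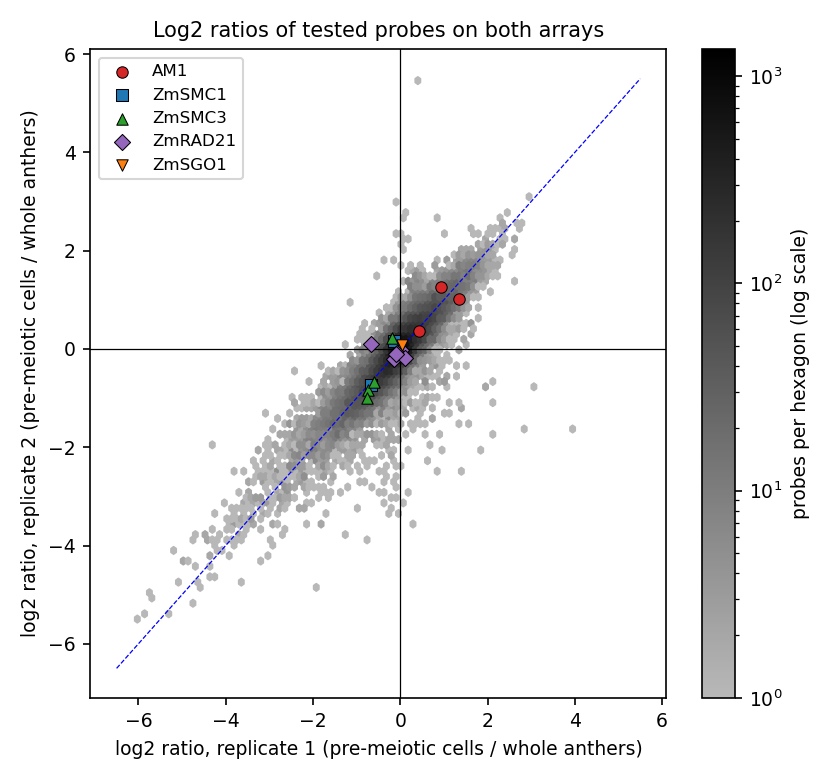
Log2 ratio of pre-meiotic cells over whole anthers for each tested probe on the array of replicate 1 (x axis) and of replicate 2 (y axis), as hexagons shaded by the number of probes on a log scale, with probes of AM1 and the cohesin and centromere genes marked and the line of equality dashed. The cloud follows the line with a correlation of 0.875, and all 3 AM1 probes lie above 0 on both arrays.

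The array also carries 10 spike-in features, control RNAs of other origin added to the samples, with 32 spots each. As a mean of both arrays they stood at -2.84 to 2.90 in log2 red over green, each at its own ratio between the dyes, and since the dyes were swapped, a ratio that goes with the dye cancels in the mean of pre-meiotic cells over whole anthers. With the arrays normalized by loess, which sets the typical ratio at every brightness to 0, the spike-in features stood at 0.78 ± 0.068 (SD over 10 features, 0.69 to 0.94), or 1.72-fold towards pre-meiotic cells. All 10 lay above the 75th percentile of the probes of like brightness (the nearest of 20 bins by level). With each array centred on its median instead, the features stood at 0.0995 ± 0.0496 (SD over 10 features, 0.05 to 0.19), and the median of the probes stood at -0.56 in the second brightest quartile, -0.78 in the brightest and 0.15 in the dimmest. The sources used here do not give the amount of spike-in RNA added to each sample. With the features themselves set to average 0, which assumes equal amounts, the median of the brightest quartile was -0.88.

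Most calls were lower under every one of these settings, and the share of them differed. With median-centred arrays moved so that the spike-in features average 0, limma called 535 probes higher (1.59%) and 12156 lower (36.1%), together 37.7% of those tested. Of the 5092 probes called higher with loess, 534 were still higher, and 14 turned to lower. Of the 6567 called lower with loess, 6486 were still lower. Median centring without the spike-in step gave 724 higher (2.15%) and 10614 lower (31.5%), 719 and 6359 of them with the same call under loess, and 0 of the probes called higher with loess turned to lower. The 534 probes were higher under all 3 settings. A loess ratio above 0 thus says that a probe was high in pre-meiotic cells relative to probes of its brightness, and a smaller number were also high relative to the added RNA.

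**Figure D3:**
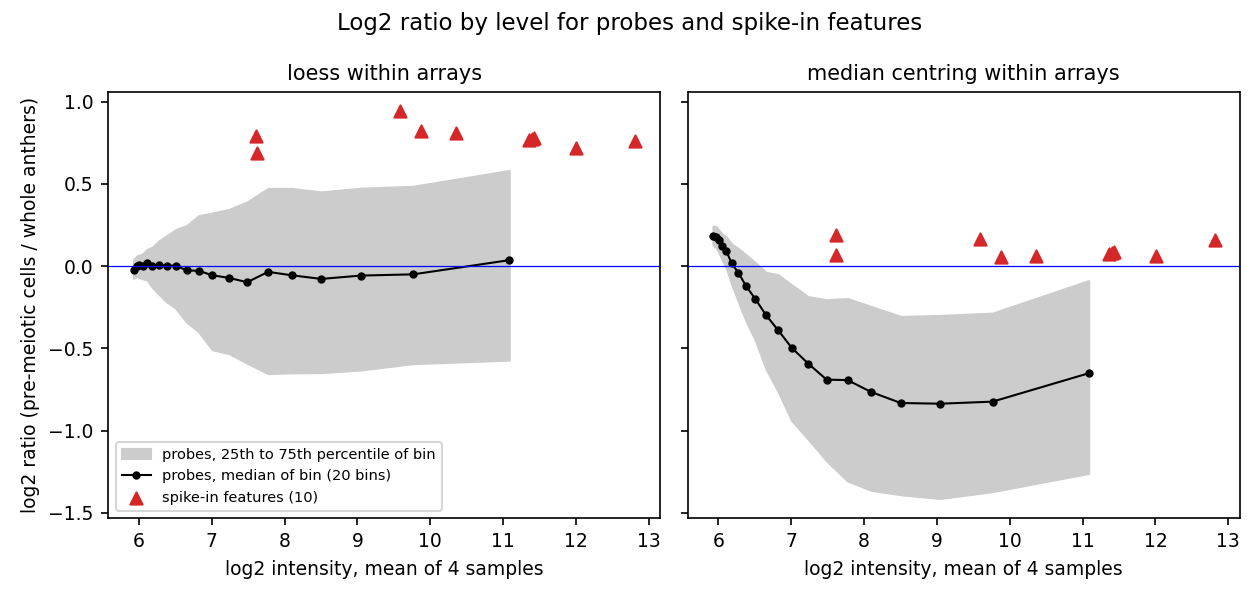
Log2 ratio of pre-meiotic cells over whole anthers (y axis) against mean log2 intensity (x axis), with loess on the left and median centring on the right. Black points give the median of 20 bins of tested probes, the grey band their 25th to 75th percentile, and red triangles the 10 spike-in features, which average 0.78 on the left and 0.0995 on the right while the median of bright probes falls below 0 on the right.

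Most probes stand for tentative consensus sequences (TC numbers), which are assembled from several expressed sequence tags, and most of the rest for a single sequence accession. Calls leaned different ways in these classes. Of 23584 tested TC probes, pre-meiotic cells were higher in 3820 and lower in 5781, so that 39.8% of their calls were higher. Of 9726 tested probes with a single accession, 1240 were higher and 760 lower, so that 62.0% of their calls were higher. Single accessions were dimmer, with a median level of 6.26 against 7.07 for TC probes. Within the brightest quartile the classes still differed, with 371 higher and 205 lower among single accessions (64.4% higher) and 2043 higher and 2558 lower among TC probes (44.4% higher). Their median ratios there were 0.25 and -0.07. With spike-in scaling both medians in the brightest quartile lay below 0, at -0.61 for single accessions and -0.91 for TC probes, and most calls in both classes were lower. Single accessions had a higher median ratio than TC probes in each of the 3 brighter quartiles under loess, median centring, spike-in scaling and the processed signals. The difference between the classes was not tested, since probes of 1 array share their samples. Probes for maize assembled genomic islands (MAGI numbers), which are stretches of assembled genomic sequence, had 12 higher and 14 lower of 197 tested, and 56.3% of them passed the filter on dim probes, against 86.8% of TC probes.

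The sequences furthest apart were taken from probes well above background in every one of the 4 samples that were called, and called alike without the offset, with 1 probe per sequence. The 12 highest had ratios of 2.40 to 3.04 (5.27-fold to 8.22-fold) and the 12 lowest -5.76 to -4.62 (24.5-fold to 54.2-fold lower). With spike-in scaling the folds were 2.90 to 4.47 for the higher 12 and 45.01 to 97.4 for the lower 12, and with processed signals 4.77 to 12.8 and 36.6 to 104.3. In all 24 the groups were apart in every sample, and all 24 kept their call with median centring, spike-in scaling and processed signals. Since the 24 were picked from these values for their wide ratios, this largely follows from the choice. The files give no function for any of them.

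TC307993 had the highest ratio, with levels of 11.32 and 11.24 in pre-meiotic cells, against 8.36 and 8.12 in whole anthers (ratio 3.04, SE 0.107, limma adjusted p = 7.73e-05). TC307992 had 13.71 and 13.30 in pre-meiotic cells, against 10.99 and 10.79 in whole anthers, a ratio of 2.61 (SE 0.111). With spike-in scaling these ratios were 2.16 and 1.86. The brightest of the 12 in pre-meiotic cells were NP004673, with 14.69 and 14.51 in pre-meiotic cells, against 12.33 and 12.05 in whole anthers, and TC289672, with 14.66 and 14.29 in pre-meiotic cells, against 12.03 and 11.78 in whole anthers. TC301958 was near the low end in whole anthers, with 8.63 and 8.98 in pre-meiotic cells, against 6.25 and 6.46 in whole anthers, and DR803797 likewise, with 9.03 and 8.67 in pre-meiotic cells, against 6.45 and 6.42 in whole anthers. The other 6 were TC289279, TC302808, TC295656, CO453837, TC313084 and TC311954, at 2.71, 2.65, 2.49, 2.46, 2.44 and 2.40.

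On the other side, BE512404 had levels of 7.55 and 7.69 in pre-meiotic cells, against 13.57 and 13.19 in whole anthers (ratio -5.76, SE 0.149, limma adjusted p = 5.88e-05). TC280505 had 8.22 and 8.25 in pre-meiotic cells, against 14.07 and 13.68 in whole anthers, a ratio of -5.64 (SE 0.133). TC311854 had 8.51 and 9.13 in pre-meiotic cells, against 14.23 and 14.07 in whole anthers, where it was the brightest of the 12. AI943759 had the lowest level in a pre-meiotic sample, with 6.83 and 6.65 in pre-meiotic cells, against 11.50 and 11.43 in whole anthers (ratio -4.72, SE 0.104). All 12 remained well above background in both pre-meiotic samples. The least even was TC301697, with ratios of -5.24 and -4.08 on the arrays of replicates 1 and 2 and levels of 8.11 and 8.70 in pre-meiotic cells, against 13.35 and 12.78 in whole anthers. The remaining 7 were TC279794, TC284616, TC304903, TC287757, TC296285, TC281806 and TC313687, at -5.38, -5.35, -4.95, -4.93, -4.73, -4.67 and -4.62.

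**Figure D4:**
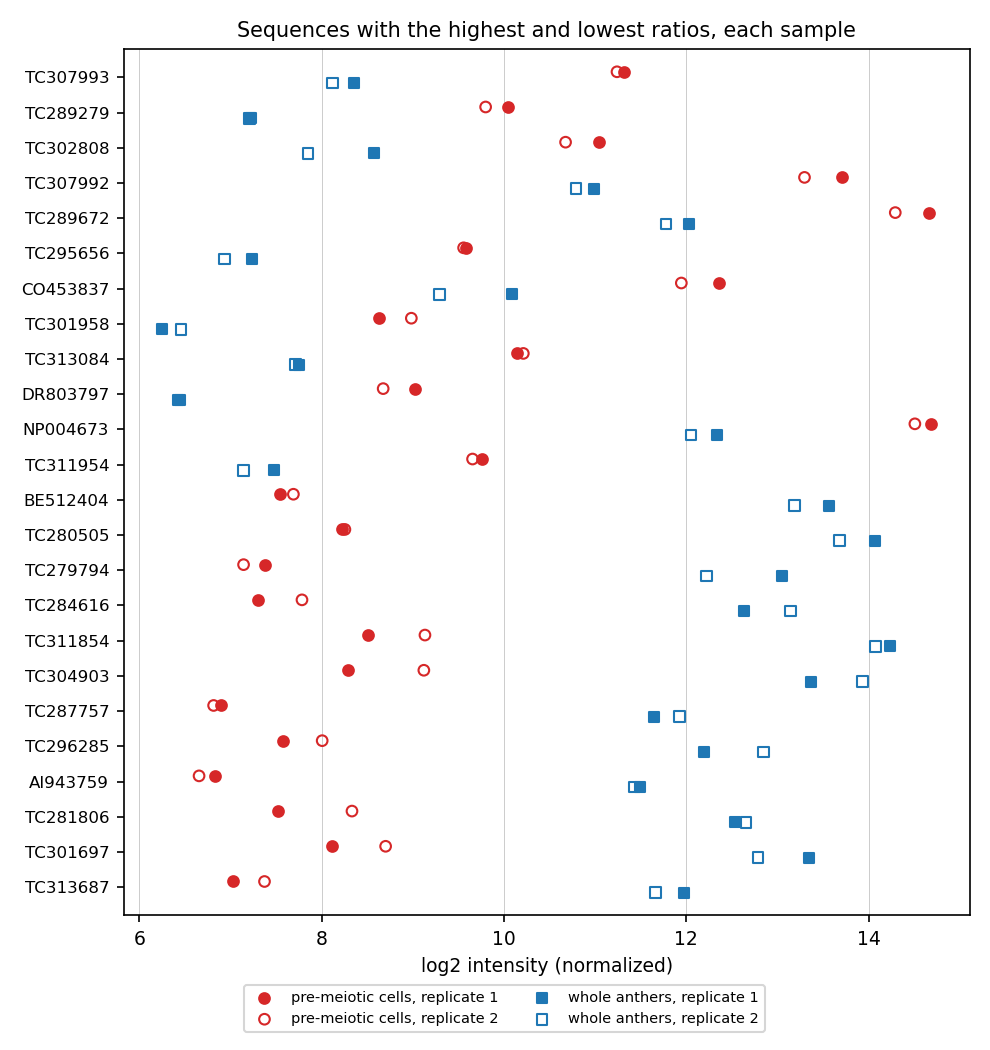
Normalized log2 intensity (x axis) of the 12 sequences with the highest and, below them, the 12 with the lowest ratio of pre-meiotic cells over whole anthers (y axis), with red circles for pre-meiotic cells and blue squares for whole anthers, filled for replicate 1 and open for replicate 2. Circles and squares are apart in all 24, with ratios of 2.40 to 3.04 in the upper 12 and -5.76 to -4.62 in the lower 12.

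At 4-fold, with 1 sign on both arrays, 46 tested probes were higher in pre-meiotic cells (0.137%) and 440 lower (1.31%). With spike-in scaling 2 were higher and 1401 lower, counted on the mean ratio alone, without the condition on signs. Probes well above background in 1 group alone entered the test through the group where they are high, so the direction of their calls was fixed and their counts are a description. Of 139 detected in pre-meiotic cells and in neither whole-anther sample, limma called 0, with 2 at an unadjusted p under 0.05, although the processed signals gave a median ratio of 0.995 and called 11 higher, where these signals gave 3.18% of all tested probes as higher and 8.47% as lower. Of 1504 detected in whole anthers and in neither pre-meiotic sample, 217 were called lower, where 19.5% of all tested probes were, and 453 with the processed signals.

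Several sequences are read by more than 1 probe, which checks a ratio within the array. Of 1603 names with at least 2 tested probes, 975 (60.8%) had ratios of 1 sign on all their probes, and 70.0% of the 444 names whose probes all lay above the median level. These 1603 names held 3387 tested probes, so most had only 2, and 2 unrelated probes would often share a sign as well. The share for unrelated probes was not computed. Of 247 names with at least 2 called probes, 225 had all their calls in 1 direction and 22 had calls in both.

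TC292328 had the lowest median among names with 3 or more tested probes. Its 3 probes had 8.42 and 8.30, 7.31 and 7.05, and 6.67 and 6.44 in pre-meiotic cells, against 12.28 and 11.97, 10.80 and 10.63, and 9.77 and 9.77 in whole anthers. The ratios were -3.76, -3.54 and -3.22 (SEs 0.109, 0.103 and 0.113). The nearness of these ratios depends on the offset: without it they were -4.07, -4.36 and -4.95, and with processed signals -4.14, -4.46 and -5.72. TC312032 was called lower on 4 of 5 probes, with ratios between -1.36 and -0.25, TC281570 on 3 of 3, between -1.66 and -0.54, and TC288425 on 2 of 3. On the higher side, AY788900 was called on 3 of 3 probes at 0.77 to 1.32, TC305979 on 3 of 3 at 0.59 to 0.94, and TC298567 on 3 of 3 at 0.48 to 0.73. With spike-in scaling 0 of these 9 probes kept the call (limma adjusted p = 0.0754 to 0.985), with median centring 1 did, a TC298567 probe, and 1 of the TC305979 probes turned to -0.14 and -0.24 under median centring and spike-in scaling.

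The ratio differed with brightness within TC292469. Of its 8 probes, the 5 dimmer ones were called higher at 0.68 to 1.44. Its 3 brightest were not called, at -0.22, -0.16 and -0.01. With spike-in scaling these 3 were called lower, at -0.88, -0.86 and -0.75 (limma adjusted p = 0.00874, 0.00425 and 0.0279), and 1 of the 5 dimmer TC292469 probes was still called higher, at 0.65 (limma adjusted p = 0.0179). The brightest TC292469 probe had levels of 13.44 and 13.40 in pre-meiotic cells, against 13.61 and 13.68 in whole anthers. The TC292469 probe with the highest ratio had 8.66 and 8.69 in pre-meiotic cells, against 7.22 and 7.25 in whole anthers.

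Among the 22 names with calls in both directions, TC282653 had the widest span. One of its probes had 9.98 and 10.25 in pre-meiotic cells, against 8.57 and 8.78 in whole anthers, and was called higher at 1.44 (limma adjusted p = 0.000395). The other TC282653 probe had 6.80 and 6.64 in pre-meiotic cells, against 8.38 and 8.36 in whole anthers, and was called lower at -1.65 (limma adjusted p = 0.000304). On the arrays of replicates 1 and 2 the first TC282653 probe had ratios of 1.41 and 1.47, and the other -1.59 and -1.72. The disagreement thus lies between the probes and not between the arrays. TC305196 likewise had probes at 1.46 and -0.99, and TC310592 at 1.17 and -1.11. The 6 probes of TC300537 ran between -1.54 and 0.45, with 2 called lower and 1 higher. With spike-in scaling the higher probes of TC282653 and TC310592 were still called higher, both at 0.56 (limma adjusted p = 0.0467 and 0.0269). Those of TC305196 and TC300537 had no call, at 0.61 and -0.38 (limma adjusted p = 0.0935 and 0.155). The calls in both directions thus depended on the scaling. With the processed signals, which called fewer probes, 1 of 45 names with at least 2 calls had them in both directions.

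A last set of probes separated the whole-anther replicates from each other. In 51 probes of 49 names, whole anthers replicate 2 was at least 4-fold above whole anthers replicate 1 while the pre-meiotic samples differed by less than 2-fold. The reverse, replicate 1 above replicate 2 in whole anthers, held for 3 probes, and in pre-meiotic cells the same rule gave 6 probes with replicate 2 higher and 4 with replicate 1 higher. The gaps of the 51 ranged between 2.04 and 4.83 on the log2 scale, with a median of 2.85, and with processed signals the ratio on the array of replicate 2 was at least 2-fold below that of replicate 1 in 50 of the 51.

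TC301839 had the widest gap, with levels of 12.24 and 11.55 in pre-meiotic cells, against 8.29 and 13.12 in whole anthers replicates 1 and 2. Its ratio was 3.95 on 1 array and -1.57 on the other. CF059868 had 9.10 and 9.51 in pre-meiotic cells, against 8.80 and 13.12 in whole anthers. TC290380 had 8.92 and 8.37 in pre-meiotic cells, against 7.52 and 10.89 in whole anthers, and TC307708 had 11.94 and 11.62 in pre-meiotic cells, against 9.81 and 13.40 in whole anthers. In these the pre-meiotic samples lay between the whole-anther samples, as they did in 28 of the 51.

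Of the 49 names, 2 had 2 probes among the 51, and each of these probes was picked by its gap. Their likeness thus follows from the rule, and probes of these names outside the 51 are not described here. The 2 probes of TC300557 had 9.49 and 9.49, and 8.30 and 8.50, in pre-meiotic cells, against 9.46 and 12.64, and 8.55 and 11.53, in whole anthers. The 2 probes of TC311015 had 7.98 and 7.85, and 7.98 and 7.56, in pre-meiotic cells, against 8.34 and 11.02, and 8.27 and 10.87, in whole anthers. Of the 51 probes, 7 were called lower in pre-meiotic cells, where 19.5% of all tested probes were called lower. The ratios of these 7 were -4.89 to -1.90 on the array that held whole anthers replicate 2, and -1.88 to -0.46 on the other. TC306257 was the most firmly called of the 7, with 7.70 and 8.42 in pre-meiotic cells, against 9.55 and 11.98 in whole anthers (limma adjusted p = 0.00281). Whole anthers replicate 2 was labelled with Cy3 and lay on another array than replicate 1, so sample, dye and array cannot be told apart here.

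The widest gap in pre-meiotic cells was in TC290252, with 6.80 and 12.48 in pre-meiotic cells, against 6.38 and 7.02 in whole anthers. Its mean ratio of 2.94 was among the 5 highest of bright probes, but rested on pre-meiotic cells replicate 2 and was not called (SE 1.05, limma adjusted p = 0.0795).

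**Figure D5:**
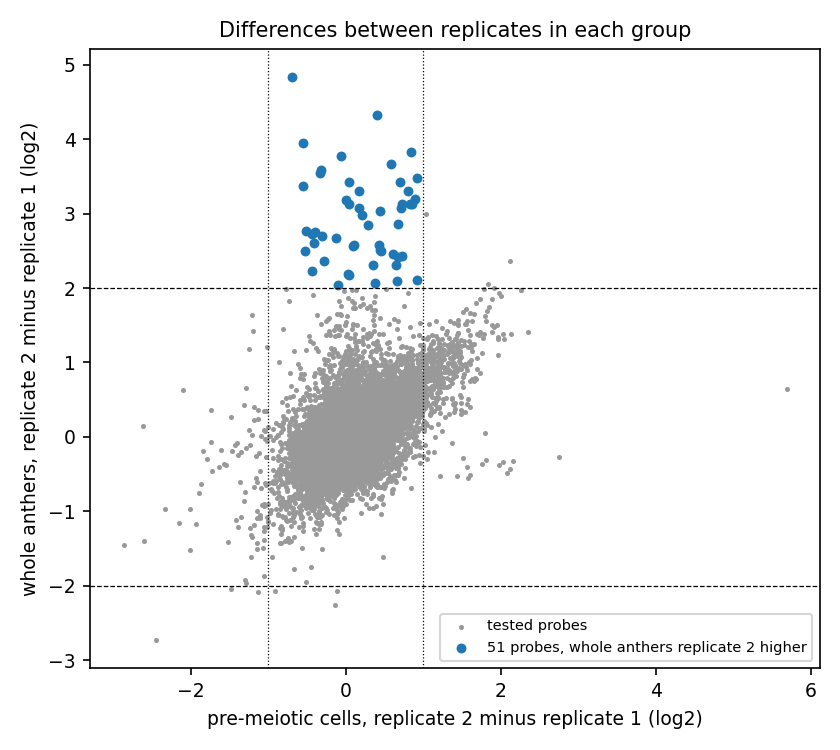
Difference of replicate 2 minus replicate 1 in log2 intensity for each tested probe, in pre-meiotic cells (x axis) and in whole anthers (y axis), with dotted lines at 2-fold and dashed lines at 4-fold. Blue points mark the 51 probes with whole anthers replicate 2 at least 4-fold above replicate 1, which sit at 2.04 to 4.83 on the y axis, and the single point at the far right is TC290252.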

How the data were processed

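Per the file headers, Agilent Feature Extraction 10.5.1.1 made the deposited scanner files. Their intensity columns give, for every spot, the median brightness of its pixels and of the surrounding background, and the scanner software's processed signals. Per the submitters' processing notes, limma 3.8.3 and R 2.13 were used by the authors. The authors' deposited value table holds linear intensities, with 1 column for each sample. On the log2 scale the columns correlated at 0.998 to 0.9996 with their own labelled channel and at no more than 0.978 with another. Medians were 57.4 and 59.5 in pre-meiotic cells replicates 1 and 2, and 62.8 and 63.6 in whole anthers, and whether the columns were scaled between arrays stays unknown. Other deposited columns, such as flags and names, hold no measured unit.

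The analysis used limma 3.58.1 in R 4.3.3. It starts from the median spot signals, the kind the files give. Spots were background-corrected with normexp (offset 50), and ratios were normalized by loess within arrays, with control and outlier-flagged spots (8 and 11 probes) at weight 0. No probe spot was saturated. On both arrays the ratio has pre-meiotic cells on top (pre-meiotic cells in Cy3 on the first and in Cy5 on the second) and fitted with lmFit and eBayes, with 1 residual degree of freedom and 4.87 from the prior. Benjamini-Hochberg adjustment (threshold 0.05) ran over all 33646 tested probes. With no dye term, dye effects of a probe are part of its spread. Levels per sample come from separate channels after loess and Aquantile. The array pairs samples of a replicate number, which per the series' design text came from the same plants, and the differences between replicates in the 2 groups correlated at 0.451 across probes. The code was tested on simulated data.

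Named probes are those with gene names, the 12 sequences highest and the 12 lowest among called probes well above background in all 4 channels and called alike without the offset, the 5 highest and 5 lowest by median among names with 3 or more tested probes, the 5 highest and 5 lowest of the brightest quartile, and the 5 on which the arrays disagreed most. Names with calls in both directions and probes with wide gaps between replicates were singled out after their values were seen. The comparison, its lists and these rules were chosen with earlier results of these data known. Of 13 gene lists, 10 matched 0 probes (histones, cell cycle, chromatin, hypoxia and redox, respiration, translation, heat shock, photosynthetic, anther wall, and vascular genes), and 2 of 39174 names matched the reference table. No probe sequence was printed. The array of mac1 samples was not used here. Alternatives are given in the closing section.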

Additional observations from a re-analysis of the deposited data

Results flagged for a closer look

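Control features of the array that no comparison uses carried signal. In all 4 W23 samples, 16 of 18 control features with the name DCP were well above background, and so were 2 of 13 named ETG. Of the 12 features named RC and of the 153 negative control spots, 0 were. The sources used here do not say what the DCP and ETG features stand for.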

How the results depend on the processing

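No alternative changed the direction in which AM1's first and second probe or the 24 furthest sequences moved. The 24 were picked for their wide ratios, so for them this largely follows from the choice. Counts and shares did move. With no offset, 3061 probes were higher, 62.51% of calls were lower, the AM1 median was 2.59, and cohesin had 2 lower and a median of -0.419. Median centring gave 724 higher and 10614 lower (93.61% lower), cohesin 7 lower with a median of -0.707, and the MuDR type 1 lower with a median of -0.205. Scaling to the spike-in features, chosen after seeing the data, gave 535 higher and 12156 lower (95.78%), an AM1 median of 0.823, cohesin 9 lower with a median of -0.806, and the MuDR type 1 lower with a median of -0.305. Processed signals gave 3921 calls, 1070 higher and 2851 lower (72.71%), and an AM1 median of 3.75. Cohesin then had a median of -0.744 and 1 lower, a ZmRAD21 probe. Correlations between arrays were 0.780 with no offset and 0.737 with processed signals. Probes well above background in all 4 channels had 53.72% of calls lower and a cohesin median of -0.173. The authors' deposited values gave medians of 1.39 for AM1 and -0.328 for cohesin.

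In the main processing the array pairs the samples. With no replicate block, 3308 probes were higher and 4577 lower (58.05%). With a dye term in place of the pairing by array, 2579 were called, 947 higher and 1632 lower (63.28%), with 1 cohesin probe lower. Leaving out 1 sample, where the lone sample of a group is assumed to vary like the others, gave 3146 to 4467 calls, 1288 to 1652 higher and 1771 to 2815 lower (56.29% to 66.07% lower), and 0 to 2 cohesin probes lower. Without any of the 4 samples the counts were lower by over 1.5 times.

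Of 86 named probes, 15 changed sign with median centring, 12 with spike-in scaling and 2 with processed signals, 11, 7 and 2 of them without a call on either side (among them MuDR-type, ZMtuc03-08-11.14301 and ZmRAD21 probes). Those that turned with a call on at least 1 side, or on leaving out a sample, were ZmSMC1's dimmer probe (-0.707 with median centring, -0.806 with spike-in scaling), ZmSMC3's brightest (-0.728 and -0.827), the called TC292469 probe with the lowest ratio (-0.107 and -0.207), a TC305979 probe (-0.140 and -0.240), ZmSGO1 (-0.567, spike-in scaling) and TC307708 (-1.61 to 1.975 with 1 sample left out, the lower value without whole anthers replicate 1). The cause was not tested.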
